A study of Mus musculus with 7 samples.

Results

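The proteasome genes are described here by the H3K4me1 fragments that lie at them in single mouse zygotes. They were chosen by symbol, as RefSeq protein-coding genes whose names start with Psm, a letter from a to g and a number, and 51 of 21631 protein-coding genes on chromosomes 1 to 19 and X matched. Of these, 16 encode subunits of the standard or tissue-specific core, 3 encode the immune catalytic subunits Psmb8, Psmb9 and Psmb10, and 30 encode regulatory subunits, activators, an inhibitor or assembly factors. The remaining 2, Psmc3ip and Psme3ip1, are named for an interaction with a proteasome protein and are no subunits. The set was proposed because Psmb8 had a high level in these same fragments, so the level of Psmb8 and its distance from the other members are given as a description.

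In CUT&Tag, the assay used, the Tn5 transposase is tethered by an antibody and cuts DNA near the histone mark. Going by the labels, 2 batches of untreated zygotes were profiled with an antibody against H3K4me1, each batch from 1 mouse. Females received 5 IU of pregnant mare serum gonadotropin and 5 IU of human chorionic gonadotropin 46 to 48 h later, and zygotes were taken 23 (unit not stated) after chorionic gonadotropin and freed of cumulus cells and zona pellucida. The labels used here give no strain for the H3K4me1 samples; those of the H3K27me3 samples of the series, not analysed here, name B6D2F1/J females of 6 weeks and C57BL6/J males of 3 to 6 months. Both H3K4me1 batches share 1 table with 16 zygote libraries, named by a number 4 or 5 and a cell number, and which number belongs to which batch is unknown from the labels. The libraries are therefore treated as 1 pool with no replicate and no p-value.

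The proteasome is the protease that degrades proteins tagged with ubiquitin. Its barrel-shaped core is built of alpha and beta rings, with the catalytic sites on beta subunits, and regulatory particles at its ends bind, unfold and feed in the substrate. In cells exposed to interferon-gamma, and constitutively in many blood cells, the standard catalytic subunits Psmb5, Psmb6 and Psmb7 are replaced by the immune subunits Psmb8, Psmb9 and Psmb10, which change the peptides made for presentation on major histocompatibility molecules. In the zygote, degradation by ubiquitin and proteasome takes part in the turnover of proteins inherited from the egg. H3K4me1, methylation of histone H3, marks enhancers and also occurs along genes in use.

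The 200 bases before the start site of 2 immune genes, of the standard counterpart of each, and of the regulatory gene with the highest level are shown, since the immune and standard genes are compared below. They are credited to RefSeq for GRCm38.p6 and run 5′ to 3′ on the strand of the gene. The listed start of Psmb6 lies just inside its annotated gene. Capitals mark 3 short motifs on either strand: TGACNNNGC, of the type bound by Nfe2l1, the factor that raises proteasome gene expression when the proteasome is inhibited; GAAA, any 2 bases and GAAA again, of the interferon-stimulated response type; and CCAAT.
Psmb8, chr17:34197995-34198194, plus strand: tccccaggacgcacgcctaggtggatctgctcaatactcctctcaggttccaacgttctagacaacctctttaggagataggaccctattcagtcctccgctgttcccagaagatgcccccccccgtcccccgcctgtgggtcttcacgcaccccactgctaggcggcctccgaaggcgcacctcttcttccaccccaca
Psmb5, chr14:54617996-54618195, minus strand: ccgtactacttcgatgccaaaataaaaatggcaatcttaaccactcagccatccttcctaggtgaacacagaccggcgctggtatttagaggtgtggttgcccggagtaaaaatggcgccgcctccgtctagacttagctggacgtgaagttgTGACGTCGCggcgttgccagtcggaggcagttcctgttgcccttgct
Psmb9, chr17:34187331-34187530, minus strand: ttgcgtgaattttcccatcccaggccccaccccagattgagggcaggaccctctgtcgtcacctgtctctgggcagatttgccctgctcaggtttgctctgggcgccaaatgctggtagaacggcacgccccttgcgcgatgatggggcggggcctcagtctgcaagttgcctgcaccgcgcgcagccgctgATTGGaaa
Psmb6, chr11:70525157-70525356, plus strand: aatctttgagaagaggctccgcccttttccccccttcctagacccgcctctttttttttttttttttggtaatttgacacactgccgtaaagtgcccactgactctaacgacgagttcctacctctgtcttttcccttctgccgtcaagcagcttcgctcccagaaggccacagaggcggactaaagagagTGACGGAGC
Psmd4, chr3:95042615-95042814, minus strand: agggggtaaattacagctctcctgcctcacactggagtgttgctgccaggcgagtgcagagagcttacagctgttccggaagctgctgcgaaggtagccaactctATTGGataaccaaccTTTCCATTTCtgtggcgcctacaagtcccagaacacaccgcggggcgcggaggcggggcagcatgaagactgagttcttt

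TGACNNNGC stood before the starts of Psmb5, Psmb6 and Psmd9, in 6.38% of 47 start regions of members and in 9.05% of 21045 regions of all protein-coding genes. The interferon-type motif stood before Psmb3, Psmd4 and Psmd9, in 6.38% of member regions and 2.23% of all. CCAAT stood in 34.0% of member regions and 31.4% of all, and GGG followed after any 5 bases by CC, of the NF-kappa-B type and not capitalised above, in 51.1% and 48.0%. Each motif was counted separately, also where matches overlap. Of the 3 immune genes, Psmb9 held CCAAT and the NF-kappa-B type, and none held the other motifs in these windows. The table of start regions held 43 of the 51 members.

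Of the 16 libraries, 14 reached 5000 fragments on chromosomes 1 to 19, X and Y and were pooled. They held from 7106 to 197312 fragments and 1404305 in all, and the deepest library left out held 672. The level of a gene is its number of fragments per bp, counted in the gene and 2.5 kb beyond each end, divided by that of the autosomes (5.62 fragments per 10 kb). Brackets give exact 95% Poisson intervals, which cover counting error only. Member windows held a median of 14 fragments, from 4 to 70, and no member had 0, so that single levels are imprecise. A mark of chromatin gives no direct check of cell type. Summed over 10 genes each, the level was 1.69 (1.45 to 1.97) at oocyte markers, 0.867 (0.741 to 1.01) at cumulus markers and 1.21 (1.04 to 1.39) at blood cell markers. The median over single genes was 1.73, 1.32 and 0.936 in the same order, so that sum and median lie on opposite sides of 1 for cumulus and blood cell markers. Intervals above 1 were found at 5, 4 and 2 genes and intervals below 1 at 1, 2 and 1, where 28.4% and 8.17% of all protein-coding genes had them.

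Among the members, Psmb8 (gene ID 16913, chromosome 17, 34198195 to 34201454) had the highest level, 6.25 (4.18 to 8.97). It encodes the immune counterpart of Psmb5. Its window held 29 fragments, where the autosomal mean gives 4.64, and ranked 4 of 21631 protein-coding genes. Fragments came from 11 of 14 libraries, with a lowest of 0, a median of 2.00 and a highest of 4 per library, so that no single zygote carried the level. The libraries named 4 gave 7.25 (2.66 to 15.8) and those named 5 gave 6.03 (3.82 to 9.05). Leaving out 1 library moved the level between 5.72 and 6.61.

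The fragments of Psmb8 did not lie at its start. The 2.5 kb before the start held 0 fragments, with an exact interval that reaches a level of 2.63. The gene itself held 4 fragments, a level of 2.18 (0.595 to 5.59). The 2.5 kb after its end held the other 25 fragments, a level of 17.8 (11.5 to 26.3), where the autosomal mean gives 1.41 fragments. These 25 fragments covered 2087 bp, chromosome 17 from 34201574 to 34203660, and ended 819 bp before Tap2, a subunit of the peptide transporter that supplies major histocompatibility molecules. Of these 25 fragments, 24 also fell in the window of Tap2, so that its level of 3.80 (2.66 to 5.26) counts them again. The rest of the Tap2 window had 1.44 (0.742 to 2.51).

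The stretch after Psmb8 was seen in 11 libraries, with 6 fragments from libraries named 4 and 19 from libraries named 5. It held 0, a median of 2.00 and at most 4 fragments per library, and libraries 4-2, 5-9 and 5-11 had none. The densest 1 kb of the Psmb8 window held 19 fragments from 10 libraries. Of all protein-coding windows, 0.134% had a 1 kb stretch with as many. The other 50 members had from 1 to 7 fragments in their densest 1 kb, with a median of 4.00 that equalled the median of all genes. The stretch was thus a short concentration of fragments, of a kind that no other member window held.

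**Figure D1:**
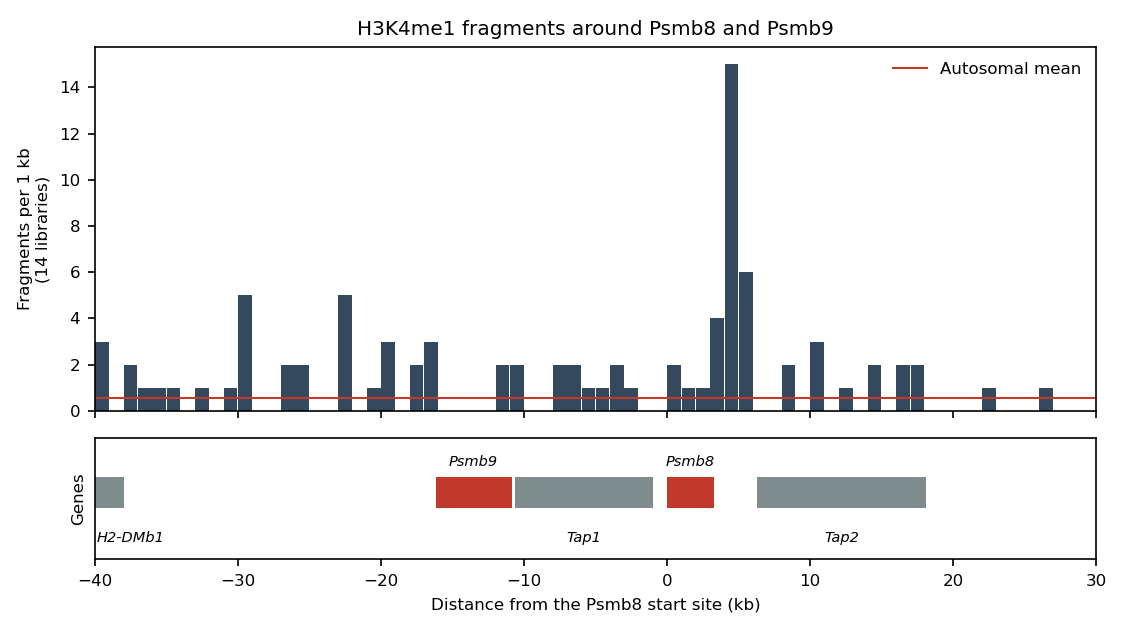
Fragments of the 14 pooled libraries per 1 kb, against the distance from the Psmb8 start site in kb, with genes as boxes below (proteasome genes in red) and the autosomal mean as a line. The bins from 3 to 6 kb after the start, past the end of Psmb8 and before Tap2, hold 4, 15 and 6 fragments, while Psmb9 and Tap1 show no such concentration.

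In the densest part, up to 4 fragments of 1 library lay over the same base, which 5.64% of all protein-coding windows reached and no other member did. The part of this overlap in the level was not tested. Fragments in the Psmb8 window were short, with 24.1% (10.3% to 43.5%) under 150 bp and a median of 225 bp, against 8.60% (8.53% to 8.66%) and 321 bp over all protein-coding windows. All 29 fragments were distinct, and whether some of them share 1 end is not given here.

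Psmb9 (gene ID 16912, chromosome 17, 34182030 to 34187330), the immune counterpart of Psmb6, lies in the same gene cluster and is separated from Psmb8 by Tap1. Its window held 9 fragments from 6 libraries, at most 3 per library, and a level of 1.55 (0.711 to 2.95). The level of Psmb8 was 4.02 times that of Psmb9 (1.85 to 9.65, counting error only). Psmb10 (gene ID 19171, chromosome 8, 105935728 to 105938392), the immune counterpart of Psmb7, also held 9 fragments from 6 libraries, at most 2 per library, and a level of 2.09 (0.955 to 3.97). The intervals of both genes, Psmb9 and Psmb10, included 1. With 5 kb on each side in place of 2.5 kb, the intervals of both lay above 1, at 3.51 (2.27 to 5.18) for Psmb10 and 2.09 (1.24 to 3.31) for Psmb9.

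The standard catalytic genes had lower point values than their immune partners, and the interval of the ratio excluded 1 for the pair of Psmb8 and Psmb5, in which Psmb8 was the gene the set was proposed for. Psmb5 held 8 fragments from 5 libraries and had a level of 1.60 (0.692 to 3.16), and the level of Psmb8 was 3.90 times as high (1.74 to 9.86). Psmb6 held 6 fragments from 4 libraries, 3 of them from library 4-2, and had 1.42 (0.520 to 3.08), or 0.744 without that library. The ratio of Psmb9 to Psmb6 was 1.10 (0.349 to 3.75). Psmb7, in a long gene, held 42 fragments from 12 libraries, from 0 to 5 per library with a median of 3.00, and had 1.23 (0.884 to 1.66). The ratio of Psmb10 to Psmb7 was 1.70 (0.729 to 3.55).

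Summed over their windows, the 3 immune genes had a level of 3.19 (2.34 to 4.24), the 16 core genes 1.26 (1.12 to 1.42) and the 30 regulatory genes 1.34 (1.23 to 1.45). The immune level was 2.52 times that of the core (1.81 to 3.45) and 2.39 times that of the regulatory genes (1.73 to 3.22). Psmb8, the gene the set was proposed for, held 29 of the 47 immune fragments, so these ratios are a description. Psmb9 and Psmb10 without Psmb8 had a summed level of 1.78 (1.06 to 2.82), which was 1.41 times that of the core (0.824 to 2.27). Without the 2.5 kb after Psmb8, an alternative added after the data were seen, the immune level was 1.65 (1.03 to 2.5) and its ratio to the core was 1.31 (0.805 to 2.02). Over the genes alone, with no flank, the ratio was 1.11 (0.503 to 2.15). With 5 kb on each side the immune level was 3.28 (2.58 to 4.11) and the ratio was 2.67 (2.05 to 3.43), and there Psmb10 and Psmb9 also had intervals above 1. How the immune genes compared with the core thus depended on Psmb8 and on the sequence counted around the genes.

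Over all 51 members the summed level was 1.35 (1.26 to 1.44), against 1.15 (1.15 to 1.15) over all protein-coding windows, and the median level was 1.46 against 1.19. In 15 members the interval lay above 1, a share of 29.4%, against 28.4% of all protein-coding genes. In 0 members did it lie below 1, against 8.17% of all. A level of at least 2 was reached by 8 of 51 members, where 13.1% of all genes reached it. Over windows of all lengths, the share of called members was thus near that of all genes. Whichever library was left out, 5 of the 15 calls held, and leaving out library 4-5 or library 5-2 left 9 members called in each case.

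**Figure D2:**
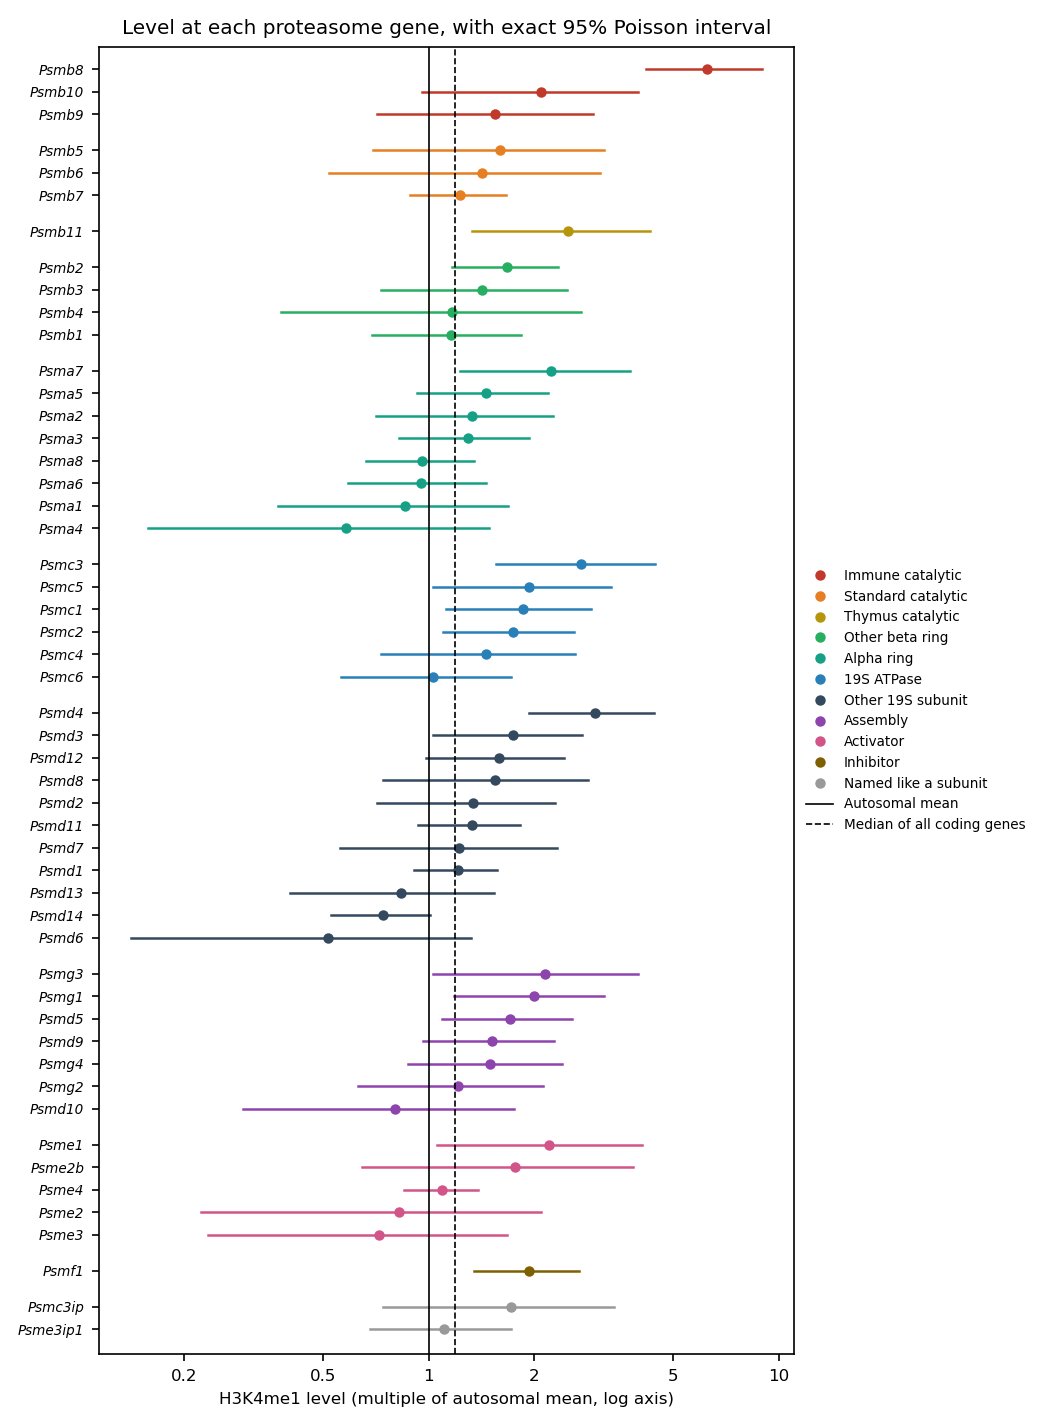
Level at each of the 51 members (points) with exact 95% Poisson interval (bars), on a log axis, grouped by role, with the autosomal mean as a solid line and the median of all protein-coding genes as a dashed line. Psmb8 stands at 6.25 with an interval that overlaps only that of Psmd4, Psmc3 and Psmb11 narrowly, and the other members spread between 0.517 and 2.98.

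In the alpha ring, which forms the gate of the core, 1 of 8 genes had an interval above 1. Psma7 held 14 fragments from 8 libraries, at most 3 per library, and had a level of 2.24 (1.23 to 3.77), which no longer excluded 1 without library 4-5. Psma8, which takes the place of Psma7 in the testis, held 33 fragments from 12 libraries, from 0 to 6 with a median of 1.5, and had 0.960 (0.661 to 1.35). Psma4 had the lowest level of the core, 0.581 (0.158 to 1.49), from 4 fragments in 4 libraries. The alpha ring as a whole had a summed level of 1.14 (0.956 to 1.34).

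In the beta ring, the 4 genes without a catalytic site had a summed level of 1.43 (1.11 to 1.80). Psmb2 alone among them had an interval above 1, a share of 25.0% against 28.4% of all protein-coding genes. It held 35 fragments from 12 libraries, from 0 to 5 with a median of 2.00, and had a level of 1.68 (1.17 to 2.34). Psmb11 (gene ID 73902, chromosome 14, 54625310 to 54629556), the catalytic subunit of thymic epithelium, held 13 fragments from 7 libraries, 4 of them from library 5-2. Its level was 2.5 (1.33 to 4.28), the highest of the core, and 1.87 without library 5-2, with an interval that then included 1.

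The 6 ATPases, which unfold substrates at the entrance of the core, all had levels above 1. In 4 of them the interval lay above 1, a share of 66.7% against 28.4% of all protein-coding genes. Psmc3 (gene ID 19182, chromosome 2, 91054016 to 91059438) led with 16 fragments from 8 libraries, at most 3 per library, and a level of 2.73 (1.56 to 4.44). Psmc5 had 1.94 (1.03 to 3.32), Psmc1 had 1.86 (1.12 to 2.91) and Psmc2 had 1.74 (1.10 to 2.61). The call of Psmc3 held without any 1 library, and the calls of the other 3 did not. The Psmc3 call was lost with 1 kb flanks, at 2.16 (0.986 to 4.10), and without flanks, at 2.30 (0.923 to 4.73). It was also lost in libraries named 4, at 2.87 (0.592 to 8.39). It held with 5 kb flanks, in libraries named 5 and against the mean of autosomal gene windows. The Psmc3 window also held part of another gene, Slc39a13. Psmc4 and Psmc6 had 1.46 and 1.03, with intervals that included 1. Summed, the ATPases had a level of 1.68 (1.36 to 2.05).

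The other 11 subunits of the regulatory particle include some that bind ubiquitin or remove it. Their genes had a summed level of 1.20 (1.05 to 1.36) and 2 intervals above 1. These 2 are a share of 18.2% against 28.4% of all protein-coding genes. Psmd4 (gene ID 19185, chromosome 3, 95032688 to 95042614), a receptor for ubiquitin chains, had 25 fragments from 11 libraries, from 0 to 7 with a median of 1.00. Its level of 2.98 (1.93 to 4.40) was the next highest of all members after Psmb8, and the level of Psmb8 was 2.10 times as high (1.19 to 3.73). Library 4-5 gave 7 of the 25 fragments, and without it the level of Psmd4 was 2.31. Psmd3 had 1.74 (1.03 to 2.75), a call that was lost without any of 6 libraries. At the low end, Psmd6 had 0.517 (0.141 to 1.32) from 4 fragments, and Psmd13 had 0.837 (0.402 to 1.54). Psmd14, the enzyme that removes ubiquitin chains from substrates, held 39 fragments, 12 of them from library 5-6, and had 0.741 (0.527 to 1.01), or 0.583 (0.384 to 0.848) without that library, an interval below 1. Of the genes with intervals that included 1, Psmd12 had 1.59 (0.984 to 2.43) and Psmd8 had 1.55 (0.743 to 2.85).

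Among the 7 assembly factors, 3 had intervals above 1, a share of 42.9% against 28.4% of all protein-coding genes. Psmg3 and Psmg1, of the chaperones that build the alpha ring, had levels of 2.15 (1.03 to 3.95) and 2.00 (1.18 to 3.16). Psmd5, a chaperone of the ATPases, had 1.71 (1.09 to 2.57). All 3 calls were lost without library 4-5, and the level of Psmg3 was then 1.39. Psmd9 and Psmg4 had 1.52 (0.963 to 2.28) and 1.5 (0.872 to 2.4), with intervals that included 1. Psmd10, the member on the X chromosome, had 0.803 (0.295 to 1.75), where the whole X chromosome had a level of 0.554. Without library 5-10 the level of Psmd10 was 0.446 (0.0920 to 1.30).

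The activators, caps that open the core without ATP, and the inhibitor gave mixed levels. Psme1 and Psme2 encode the subunits of the activator that interferon-gamma induces. Psme1 held 10 fragments from 4 libraries, 5 of them from library 5-10, and had 2.21 (1.06 to 4.07), or 1.23 without that library. Psme2, its neighbour on chromosome 14, held 4 fragments from 3 libraries and had 0.822 (0.224 to 2.10), or 0.477 without library 5-4. The ratio of Psme1 to Psme2 was 2.70 (0.777 to 11.8). Psme3, of a nuclear activator, had 0.722 (0.234 to 1.68), and without library 5-4 it had 0.335. Psme4, an activator that acts on histones in mouse spermatids, held the most fragments of any member, 70 from 14 libraries, from 2 to 9 with a median of 5.00, and had 1.09 (0.849 to 1.38). Psme2b, a copy of Psme2, had 1.76 (0.646 to 3.83) from 6 fragments. Reads can be shared between Psme2b and Psme2, and the level of either is uncertain for that reason. Psmf1, an inhibitor of the core, held 36 fragments from 12 libraries, from 0 to 6 with a median of 2.5. Its level was 1.93 (1.35 to 2.68), a call that held without any 1 library.

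Both genes that are named like subunits had intervals that included 1. Psmc3ip, which acts in meiotic recombination, had a level of 1.72 (0.741 to 3.38), which was 0.997 without library 5-4. With 1 kb flanks it had 2.69 (1.16 to 5.30) and around its start 5.33 (1.96 to 11.6), both intervals above 1. Psme3ip1, a partner of Psme3, had 1.11 (0.679 to 1.72). In Psme3ip1 the libraries named 4 gave 3.43 (1.71 to 6.13) and those named 5 gave 0.609 (0.278 to 1.16). It was the only member of 51 whose intervals in these sets did not overlap. The share of all protein-coding genes without such overlap is not given here, so this count has no background.

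Each member was also set against its own surroundings, the sequence from 2.5 to 50 kb away on both sides. The median ratio was 1.13 in the members, against 1.02 in all protein-coding genes. The ratio had an interval above 1 in 4 of 51 members, against 9.44% of all genes with a ratio. These were Psmb8 with 3.88 (2.45 to 5.97), Psmb11 with 2.62 (1.31 to 4.89), Psmd4 with 2.12 (1.29 to 3.38) and Psmd12, a subunit of the regulatory particle, with 1.97 (1.11 to 3.40). Psmb8 is the gene the set was proposed for, so its ratio is a description, and without it the count was 3 of 50. The interval of the ratio lay below 1 in Psmd13, with 0.434 (0.202 to 0.831), and in 5.05% of all genes. Psmb10 and Psmb9 lay in the richest surroundings of the members, with surrounding levels of 2.47 and 2.10, and had ratios of 0.845 (0.378 to 1.65) and 0.741 (0.330 to 1.46).

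**Figure D3:**
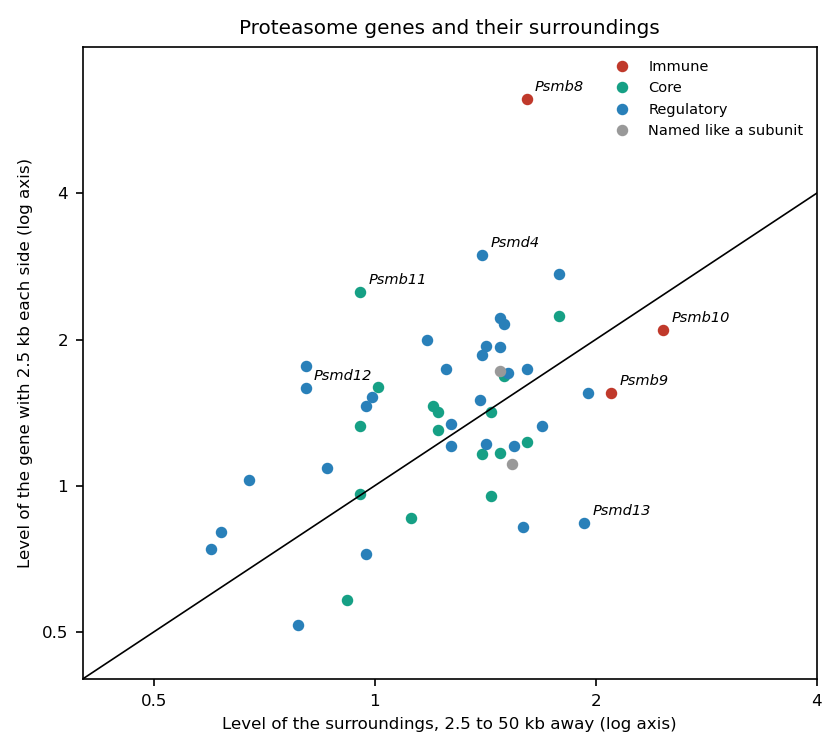
Level of each of the 51 members against the level of the sequence 2.5 to 50 kb away, both on log axes, coloured by group, with a line where the levels are equal. Psmb8, Psmd4, Psmb11 and Psmd12 lie above the line with intervals of the ratio above 1, Psmb9 and Psmb10 lie below it in rich surroundings, and Psmd13 lies lowest relative to the line.

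Gene-dense places had higher levels among the members, as among all genes. The members had a median of 17 protein-coding neighbours within 500 kb, against 15 for all genes. When all genes were put in 5 groups by this number, the median level of the 9 members in the sparsest was 1.09, against 0.987 for all genes there. In the densest, the 14 members had 1.58 against 1.41. The members had the higher median in all 5 groups. The median window of the members was 16567 bp, against 22329 bp for all genes. The 17 members with windows within 2.5 kb of 10 kb in length had a median level of 1.72, against 1.27 for 3642 genes with such windows. Intervals above 1 were found in 41.2% of these members, Psmb8 among them, and in 20.1% of these genes. Length was matched in this comparison and gene density was not. These members had a median of 36 neighbours within 500 kb and a median surrounding level of 1.48, against 22 and 1.31 for these genes. The part of gene density in the difference was not tested. Of the 51 windows, 34 also held part of another protein-coding gene, whose fragments cannot be told apart.

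No excess over the neighbouring sequence was detectable at the start sites of the proteasome genes. Within 500 bp of 43 starts the level was 1.41 (0.974 to 1.97), between 500 bp and 5 kb upstream it was 1.41 (1.19 to 1.65), and over the same distance downstream it was 1.53 (1.30 to 1.78). The centre was 0.959 times the rest (0.653 to 1.37). For 17274 starts of all protein-coding genes the ratio was also 0.959 (0.940 to 0.978), with levels of 1.13, 1.12 and 1.24 at the 3 places. Without Psmb8 the downstream level of the members was 1.36 (1.14 to 1.60).

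**Figure D4:**
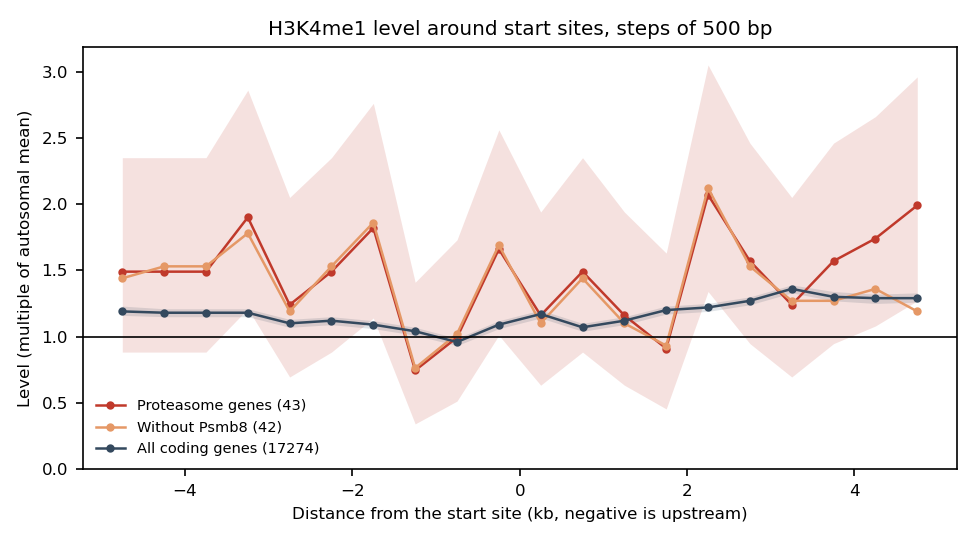
Level by distance from the start site in kb, in steps of 500 bp, for 43 proteasome genes, for 42 without Psmb8 and for 17274 protein-coding genes, with shaded exact 95% Poisson intervals for the first and the last. The member line varies within wide intervals, at 0 as elsewhere, and past 3.5 kb lies higher with Psmb8 than without it.

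Across zygotes, the summed level of all members was above 1 in 12 of 14 libraries. Among the 13 libraries above 20000 fragments it had a median of 1.29 and lay between 0.888 (library 5-8) and 2.07 (library 4-5). It was above the level of all autosomal gene windows of the same library in 11 of 13. Library 4-5 stood apart in the regulatory genes, with 74 fragments and a level of 2.35, while its core genes had 18 fragments and a level of 1.12. It gave 11.2% of all member fragments and 7.33% of all fragments in the pool, among them 12 of the 54 fragments of Psmd1, the largest scaffold subunit of the regulatory particle. Without it the summed level of the regulatory genes was 1.26 and that of all members was 1.29. Immune windows held 0 to 7 fragments per library with a median of 3.5. A level above 1 was seen for 35 members in the libraries named 4, for 38 in those named 5 and for 29 in both. Member levels in the libraries named 4 and in those named 5 had a Spearman rank correlation of 0.249. The same counts over all protein-coding genes are not given here.

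**Figure D5:**
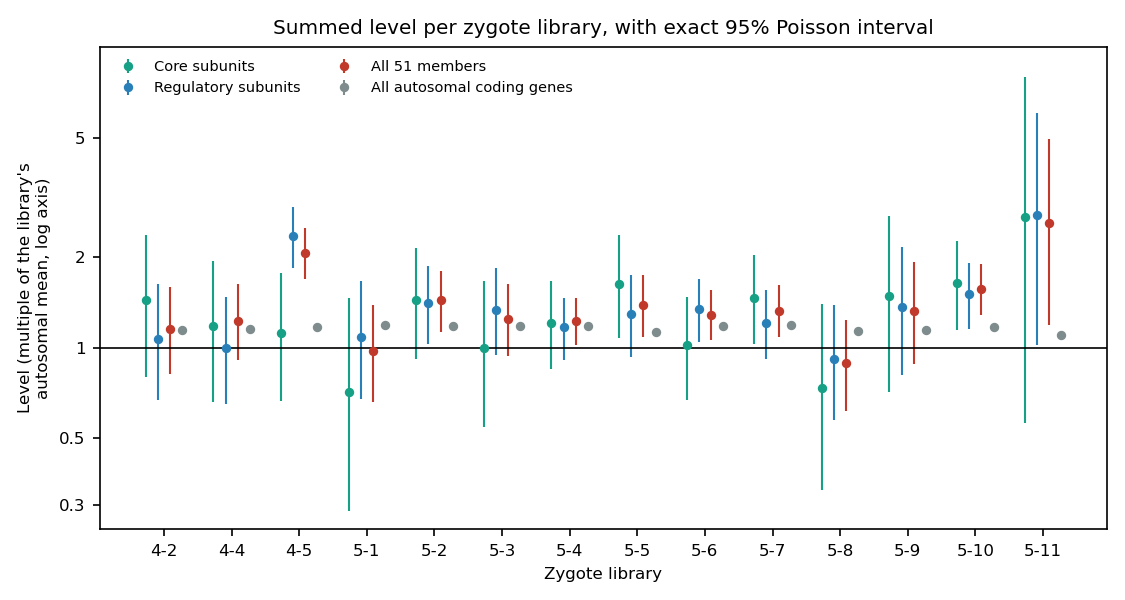
Summed level of the core genes, the regulatory genes, all 51 members and all autosomal protein-coding genes in each zygote library, with exact 95% Poisson intervals, on a log axis. The members lie from 0.888 to 2.07 in the 13 deeper libraries, library 4-5 is highest among these for all members and for regulatory genes, and all coding genes lie between 1.10 and 1.19.

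Genes of the same pathway that carry other names had called genes in both directions. Of 24 such genes found, 7 had an interval above 1, a share of 29.2% against 28.4% of all protein-coding genes, and 3 below, with a median level of 1.26. Adrm1, another ubiquitin receptor of the proteasome, had 3.30 (1.96 to 5.22). Ddi2, the protease that activates Nfe2l1, had 2.26 (1.71 to 2.93), and Nfe2l1 had 1.93 (1.16 to 3.01). The unfolding ATPase gene Vcp had 1.95 (1.30 to 2.82), the ubiquitin-activating gene Uba1 had 1.79 (1.21 to 2.55), and the shuttle gene Ubqln4 had 1.78 (1.10 to 2.71). Below 1 lay Uchl5 with 0.555 (0.277 to 0.994) and Usp14 with 0.557 (0.297 to 0.952), both deubiquitinases of the proteasome, and Ecpas with 0.709 (0.526 to 0.934).

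Of 17 antigen presentation genes, 7 had an interval above 1, a share of 41.2% against 28.4% of all protein-coding genes, and 1 below. Tap2 is among the 7, but its call counts the stretch after Psmb8 again. The rest of the Tap2 window had 1.44 (0.742 to 2.51), an interval that included 1. Besides Tap2, whose window shares the stretch with Psmb8, H2-DMb2 had 2.67 (1.63 to 4.12) and H2-DMb1 had 2.51 (1.46 to 4.02). H2-K1 had 2.04 (1.02 to 3.64) and Tap1 had 1.94 (1.11 to 3.15), and all these lie on chromosome 17. Of the other listed genes there, H2-D1 had 1.51 (0.653 to 2.98) and H2-Ob had 1.04 (0.417 to 2.14). H2-DMa had 1.02 (0.558 to 1.71) and Tapbp had 0.480 (0.131 to 1.23), so that listed genes of this chromosome were not all called. Pdia3 had 1.79 (1.21 to 2.56) and Nlrc5, a transactivator of these genes, had 1.62 (1.30 to 1.99). Erap1, which trims peptides, had 0.607 (0.371 to 0.937). Among blood cell markers, Cd3e had 2.68 (1.72 to 3.99) and Spi1 had 2.41 (1.80 to 3.16), while Ptprc, carried by nearly all white blood cells, had 0.694 (0.508 to 0.926). The part of blood cells in the level of Psmb8 was not tested.

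Other large complexes were set beside the members, in windows that held unlike numbers of fragments. The median was 14 fragments in the members, 6 in ribosomal protein genes and 10 in respiratory chain genes. The proteasome members had a median level of 1.46 and 29.4% of intervals above 1. The 97 ribosomal protein genes had a median of 1.31 and 20.6%, and the 96 nuclear genes of the respiratory chain had 1.23 and 25.0%. No test of these differences was made, since the pool has no replicate.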

How the data were processed

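H3K4me1 fragments of single zygotes were analysed. The deposited table lists 1 fragment per line with a count of 1 in all 1424363 lines, so counts per region are numbers of lines. The genome build is mm10, per the submitters' processing notes. The aligner, the duplicate removal, the filters and any Tn5 shift were not given in the sources used here, so that unremoved duplicates or multiply placed reads could raise short stretches. The table held 5 repeated lines.

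Fragments were placed by their midpoint, libraries under 5000 fragments were left out, and chromosome lengths ran from the first to the last fragment. Gene positions, symbols and start regions came from RefSeq for GRCm38.p6. Of 72 genes in the fixed lists 71 matched a symbol or synonym. Summed levels count shared bases once. Intervals for levels are Poisson, for shares Clopper-Pearson and for ratios conditional binomial, all exact. The table gives no molecular identifier, so fragments may not be independent molecules and intervals cover counting error only. Counting code was tested on simulated data. Python 3.11.15, numpy 2.4.6, scipy 1.17.1 and pandas 2.3.3 were used.

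Members and lists were chosen with earlier results of these data known. Named with values were the immune, standard catalytic and tissue-specific genes, activators and inhibitor, members with an interval apart from 1, and the 5 highest and 5 lowest of the others. Psmc4, Psmc6, Psmd1 and Psme3ip1 were named after their values were seen. H3K27me3 and transcriptome samples, and protein sequences, were not used here. The value of 1 listed pathway gene is not reported here.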

Additional observations from a re-analysis of the deposited data

How the results depend on the processing

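Values were recomputed with windows of 1 kb, 5 kb or no flank, 1 kb around start sites, other library minimums, equal library weights, both fragment ends, repeats counted once, high bins left out, each library set alone, another baseline and each library left out. Most summed levels, ratios and medians stayed within their intervals. Over the genes alone the immune level was 1.43 and its ratio to the core 1.11; without the 2.5 kb after Psmb8 these were 1.65 and 1.31. The level of Psmb8 was 3.72 with 1 kb flanks, 2.18 without flanks, 1.78 around its start and 1.24 without the 2.5 kb after it. In these cases less of the stretch after Psmb8 is counted. The number of members above 1 was 8 with 1 kb flanks, 8 without flanks and 2 around start sites. It was 9 in libraries named 4 and 7 against the mean of autosomal gene windows. With 1 library left out it was 9 to 16, and 16 without library 4-2 or library 5-5. Fewer fragments were counted in all but the baseline case, and the part of this in the numbers was not tested. Against that baseline the summed levels were 1.15 (1.08 to 1.23) for all members, 1.08 (0.957 to 1.21) for the core and 1.14 (1.05 to 1.24) for the regulatory genes. The interval of the core then included 1. In libraries named 4 the summed level was 1.56 for all members and 1.57 for regulatory genes, and the median of all members was 1.21. Around start sites the regulatory level was 1.06, and the medians were 0.889 for all members and for regulatory genes and 1.78 for the core, where 1 fragment gives 0.889. There Psmd4, Psmd5, Psmc5 and Psmg1 had 0.889 and Psma7 and Psmc1 had 0. In libraries named 4, Psmc5 had 0.837 and Psmd3 had 0. For these reversals and for the values of libraries named 4 the cause was not tested. With 5 kb flanks 4 named members gained an interval above 1 (Psmb9, Psmb10, Psmd9 and Psmd12) and 4 lost it (Psmb11, Psmc5, Psmd3 and Psme1); with 1 kb flanks 2 gained and 9 lost it, without flanks 1 and 9, around start sites 1 and 12, in libraries named 4 2 and 9, and in those named 5 0 and 5. Psmd14 lay below 1 under 5 alternatives, at 0.633 to 0.725. Equal weights and both ends gave no interval per gene and so no count. No paired analysis was possible because the libraries are not tied to the batches and the groups were not compared. Depth limits single genes: a window held a median of 14 fragments.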
